A study of Drosophila melanogaster with 4 samples.

Results

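The response to mating shared by all mates was read as the difference between 3 columns of mated Drosophila melanogaster females and 1 column of virgin females. A gene counted as one-sided when its 3 mated values all lay above, or all lay below, its virgin value. Of 6201 genes compared, 2939 (47.4%) were one-sided. In a one-sided gene the virgin column is the highest or the lowest of the 4. That happens often without any response, so the share alone is no measure of one. In 1579 genes all 3 mated columns were above virgin (25.5% of the genes compared), in 1360 all 3 were below (21.9%), and in 3262 they lay on both sides (52.6%).

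All females came from an inbred wild-type Canton S stock, were 3 to 4 days old and had been reared at 25 °C with 12 h of light and 12 h of dark. One group stayed virgin. The second had mated with DTA-E males, a transgenic stock in the Canton S background; these males pass no sperm and no accessory gland proteins (Acps) from the main cells, which are 96% of the gland's secretory cells. The third had mated with spermless males, the sons of Canton S males and bw sp tud1 females, which pass Acps without sperm, and the fourth with wild-type Canton S males, which pass both. Mated females were frozen 1 to 3 h after mating. The labels name no promoter for the DTA-E transgene and describe no sham pairing for the virgin females. RNA was extracted from pools of 50 whole flies, with 2 extractions and 4 chips per treatment, but the value table holds 1 column per treatment. There was therefore no replicate, no test, no p-value and no standard error, and the single virgin column entered every difference. An error in the virgin column would move a gene the same way in all 3 mated columns.

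A mated female fly lays more eggs, refuses further courtship, stores sperm and changes what she eats, and much of this is known to follow from seminal proteins such as the sex peptide. Maltases and amylases split dietary sugars in the gut, trypsins and the related Jonah proteases digest protein, the spermatheca stores sperm and secretes proteases around it, and follicle cells of the ovary build the eggshell from chorion proteins. Because whole flies were sampled, fewer cells of a type and less RNA per cell cannot be told apart.

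The table gives logged values without naming the base. They were taken as log2, so that 1 unit is 2-fold, while 1 unit of a natural log would be 2.72-fold. Each column was centred on its median. The 4 columns had correlations of 0.993 to 0.996 across probe sets. Where a gene had several probe sets (294 genes), their mated-minus-virgin differences varied with an SD of 0.068, a spread that does not cover variation between pools of flies. None of the 79 genes that met the 1.2-fold rule below had a second probe set among those compared. The yolk protein gene Yp1, which adult females express in the fat body and ovary, had high values in all 4 columns (5.19 in virgin females and 5.07, 5.09 and 5.11 after DTA-E, spermless and wild-type males). The control probe sets differed too. On the centred scale of the genes, the 23 foreign controls, which measure background, averaged -1.74 in virgin females, -1.74 with DTA-E mates, -1.62 with spermless mates and -1.67 with wild-type mates. For the actin controls the 3' probe set minus the 5' one, a sign of RNA integrity, was 1.95, 2.26, 2.02 and 1.97 in the same order. It was higher than virgin in all 3 mated columns, as it was for GAPDH (1.79 against 1.97, 1.93 and 1.84) and eIF-4a (1.70 against 1.97, 1.80 and 1.78). The part of these differences in the results was not tested.

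Most one-sided differences were small. Of the 2939 genes, 2860 had at least 1 mated column within 1.2-fold of virgin (0.26 on the log2 scale). The 3 mated columns were all at least 1.2-fold below virgin in 52 genes (0.839% of the genes compared) and all at least 1.2-fold above it in 27 (0.435%). Without the spermless column the count below was 96, and without the DTA-E column the count above was 49. Of the 27, 7 passed the filter on low values (the highest of the 4 columns had to reach the overall median) only through mated columns, and of the 52, 6 only through the virgin column. At 1.5-fold (0.58 on the log2 scale) there were 14 genes below (0.226%) and 4 above (0.0645%). Of these 4, 2 (Send2 and Cipc) passed the filter only through mated columns. Of the 14, 2 (Mal-A8 and CG4377) passed it only through the virgin column. At 2-fold there were 4 below (0.0645%), Mal-A1, CG4363, tobi and Mal-A7, and 0 above (0%). The mean of the 3 mated columns was past 2-fold in 1 one-sided gene above virgin (0.0161%), Send2, and in 8 below it (0.129%). Taken singly, the DTA-E column was past 1.5-fold above virgin in 12 genes (0.194%) and below it in 24 (0.387%). The spermless column was above in 31 (0.5%) and below in 18 (0.29%), and the wild-type column above in 11 (0.177%) and below in 62 (1%). Of 105 genes past 1.5-fold in at least 1 mated column, 18 were past it in the same direction in all 3.

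Sugar-digesting enzymes led the genes that were lower in every mated column. Mal-A1, a maltase, had a value of 2.96 in virgin females, 1.76 with DTA-E mates, 1.80 with spermless mates and 0.77 with wild-type mates. All 3 mated values lay more than 1 log2 unit below the virgin value, the weakest difference being 2.23-fold and the mean 2.85-fold (-1.51). Mal-A7, another maltase, was 0.91 in virgin females and -0.23, -0.16 and -0.50 after DTA-E, spermless and wild-type males. Its 3 mated values spanned 0.34 while the nearest of them was 1.07 below virgin, so the gap was 3.13 times the range among mates. For Mal-A1 the same ratio was 1.13, since the wild-type column lay well below the other mated columns.

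The alpha-glucosidase gene tobi, named as a target of brain insulin, was 1.36 in virgin females and 0.34, 0.24 and -0.37 after DTA-E, spermless and wild-type males. Mal-A6 was 0.59 against -0.36, -0.09 and -1.05, and Mal-A8 was -0.21 against -1.12, -0.91 and -1.42, a wild-type value within the range of the foreign controls. In both maltase genes, as in tobi, every mated column was at least 1.5-fold lower and the wild-type column was the lowest. Mal-A4 was lower by less (mean difference -0.60, from -0.49 to -0.69), and so was the amylase-related gene Amyrel (-0.34, from -0.27 to -0.37). In the carbohydrate digestion list, 11 of 12 measured genes (91.7%) were one-sided below virgin, beside 21.9% of all genes compared. Of these 11, 7 were past 1.2-fold and 5 past 1.5-fold in every column, and no member was one-sided above virgin. Mal-A8, among the 5, and Amyrel, among the 7, passed the filter on low values only through the virgin column. The list median was -0.56, beside 0.01 over all genes compared. The exception was Mal-A5, at 0.10 after DTA-E and spermless males and -0.15 after wild-type males.

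**Figure D1:**
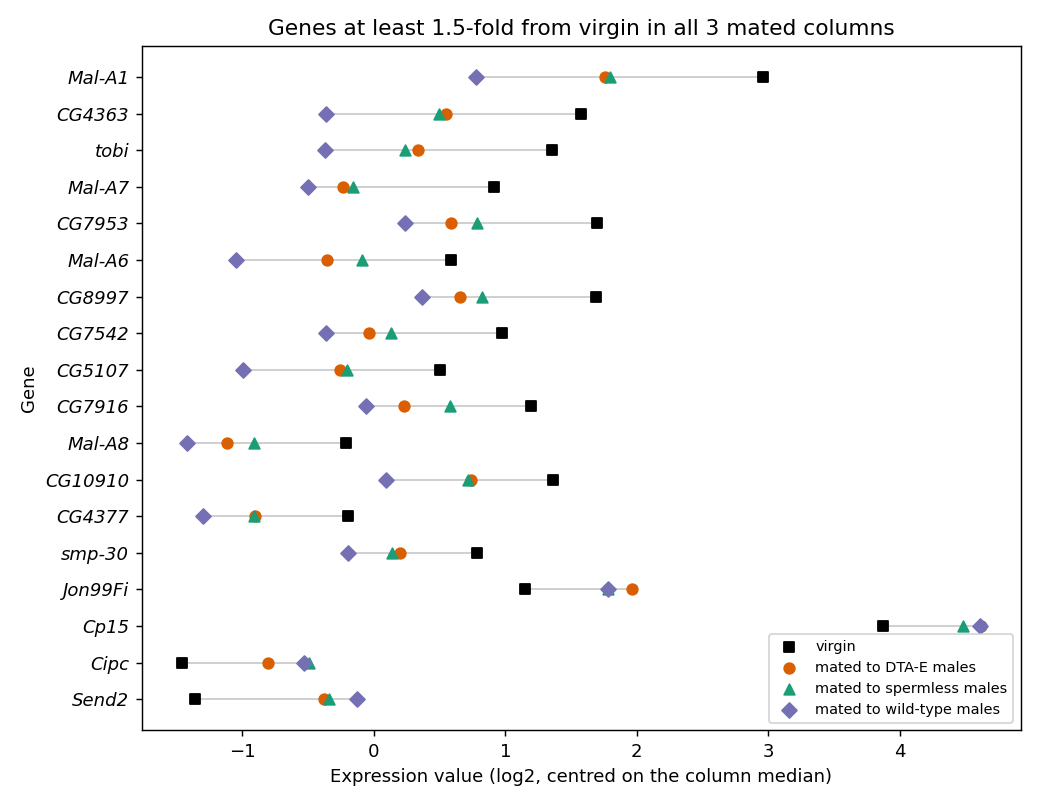
Expression values (log2, centred; x axis) of the 18 genes (y axis) whose 3 mated columns were all at least 1.5-fold from virgin, with 1 point per column and a grey line spanning the 4. The 14 lower genes have the virgin square at the right end and the wild-type diamond at the left end of every line, while in the 4 higher genes the virgin square is at the left; the DTA-E point of Cp15 lies under the wild-type one at 4.61.

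The lower genes were in part neighbours on the chromosome. In the gene order of the RefSeq Release 6 annotation of the fly, Mal-A1 to Mal-A8 are consecutive protein-coding genes on arm 2R, and 5 of the 8 met the 1.2-fold rule. Their differences did not follow the order along the cluster: the mean difference was -1.51 for Mal-A1, -0.31 for Mal-A2, -0.28 for Mal-A3, -0.60 for Mal-A4, 0.02 for Mal-A5, -1.09 for Mal-A6, -1.21 for Mal-A7 and -0.94 for Mal-A8. Mal-A1 and Mal-A6 to Mal-A8 had the larger differences and Mal-A2 to Mal-A5 the smaller ones, in each of the 3 mated columns. CG8997, CG7916 and CG7953 are 3 consecutive genes on arm 2L, and all were past 1.5-fold. CG7953 was 1.70 in virgin females and 0.59, 0.78 and 0.24 after DTA-E, spermless and wild-type males. CG8997 was 1.69 against 0.66, 0.82 and 0.36, and CG7916 differed from virgin by -0.97, -0.62 and -1.25. The 3 genes had the same order of columns: virgin, spermless, DTA-E and wild-type from high to low.

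A further pair of adjacent genes on arm 2R, CG4363 and CG4377, behaved alike in these columns. CG4363 was 1.57 in virgin females and 0.55, 0.50 and -0.36 after DTA-E, spermless and wild-type males, a mean difference of -1.35 and the largest after Mal-A1. CG4377 was -0.20 against -0.91, -0.91 and -1.30, the last within the range of the foreign controls (-2.03 to -1.15). It passed the filter on low values only through the virgin column. CG5506 and CG16775, adjacent on arm 3L, had mean differences of -0.57 and -0.60 with ranges among mates of 0.19 and 0.20. Of the other genes past 1.5-fold below virgin, CG10910, CG7542 and CG5107 also had the wild-type column lowest. CG10910 was 1.36 in virgin females and 0.74, 0.72 and 0.09 after the same mates, CG7542 was 0.97 against -0.04, 0.13 and -0.36, and CG5107 was 0.50 against -0.25, -0.20 and -0.99. With a limit of 10 places between successive genes, 18 of the 52 lower genes fell in 7 groups and 5 of the 27 higher genes in 2. Genes outside the rule could lie between them: 3 higher genes on arm 2L were spread over 12 consecutive protein-coding genes. How often other gene sets of these sizes fall this close was not counted. These counts are a description of gene order, and near-identical neighbours could share signal on a probe set, which was not tested.

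**Figure D2:**
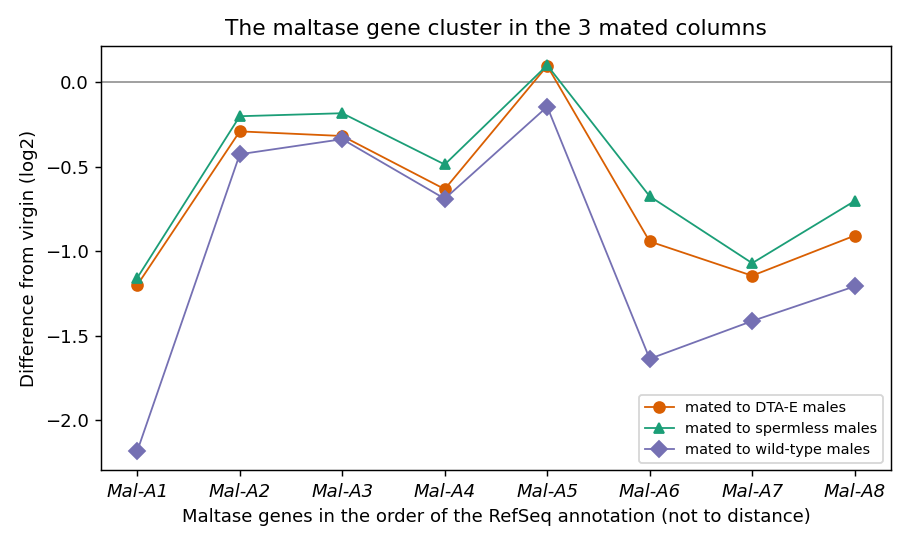
Difference from virgin (log2; y axis) of the 8 maltase genes in annotation order (x axis, not to distance) in each mated column; lines join the genes for reading only. Mal-A1 and Mal-A6 to Mal-A8 lie lowest in all 3 columns, Mal-A5 is near 0, and the wild-type column is the lowest at every gene.

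Protein digestion was less uniform. Bace, a gut aspartic protease, was 3.62 in virgin females, 3.04 with DTA-E mates, 3.07 with spermless mates and 2.10 with wild-type mates. It lay just outside the 1.5-fold rule, with both the DTA-E and the spermless column short of it. The trypsin genes betaTry and alphaTry were one-sided, but most of their mean difference of -0.60 each came from the wild-type column: the nearest mated column, spermless, differed by -0.18 and -0.23 and the wild-type column by -1.23 in both. Of 9 measured members of the trypsin and aspartic protease list 6 (66.7%, beside 21.9% of all genes compared) were one-sided below virgin and 1 above, with a median of -0.29. epsilonTry, another trypsin, lay on both sides (-0.42, 0.06 and -0.93 after DTA-E, spermless and wild-type males).

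Some Jonah proteases were higher in every mated column. Jon99Fi was 1.15 in virgin females and 1.96, 1.78 and 1.78 after DTA-E, spermless and wild-type males. Its mated columns were at least 1.54-fold higher and lay within 0.18 of each other. Jon25Bi (0.82, 0.47 and 0.48) and Jon25Bii (1.13, 0.61 and 0.37), in 1 cluster on arm 2L, were also higher after all mates, most after DTA-E males. Jon25Biii, in the same cluster, lay on both sides of virgin (-0.10, 0.13 and -0.32). In all, 7 of 14 measured Jonah genes (50.0%, beside 25.5% of all genes compared) were one-sided above virgin, 1 below and 6 on both sides. Their median was 0.09. Without the spermless column, 7 were above and 6 below. Jon74E (-0.36, 0.07 and -1.29) and Jon65Aiv (-0.10, 0.00 and -0.79) were on both sides in the same comparison, and Jon65Aiv stood at the virgin value after spermless males. Jonah and trypsin genes are multigene families, so related transcripts may share signal. Lysozyme genes, digestive in the fly gut, were one-sided in 1 of 6 cases (LysP, -0.31, -0.04 and -0.28). LysC, for example, was 2.47 in virgin females and 1.86, 2.58 and 1.55 after DTA-E, spermless and wild-type males.

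Several genes of detoxification were among the lower genes. Cyp6d5, a cytochrome P450, was 1.61 in virgin females and 0.92, 1.09 and 0.62 after DTA-E, spermless and wild-type males. Cyp28d1 was -0.15 against -0.60, -0.60 and -0.89, and Cyp12d1-d, which has a near-identical copy, was 0.53 against 0.14, -0.26 and 0.05. Cyp12d1-d was lowest after spermless males, unlike the others. Cyp6g1, known from insecticide resistance, had a mean difference of -0.52, and Cyp6w1 (-0.33, -0.31 and -0.38) had nearly the same difference after every mate. Of 27 measured P450 genes 13 (48.1%, beside 21.9% of all genes compared) were one-sided below virgin and 1 above. Of the 13, 6 were past 1.2-fold below in every column. The list median was -0.04, and 19 of the 27 mean differences were below 0. Of 30 glutathione and UDP-glycosyl transferase genes 9 (30.0%) were one-sided below and 7 (23.3%) above, near the 21.9% and 25.5% of all genes compared, and the list median was 0.01. In this list Ugt35C1 (mean -0.57), GstT4 (-0.50) and GstE3 (-0.43) were past 1.2-fold below in every column. Ugt35C1 passed the filter on low values only through the virgin column.

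Metabolic genes outside digestion showed a few shared differences. smp-30, a homologue of a mammalian senescence marker protein, was 0.79 in virgin females and 0.20, 0.14 and -0.20 after DTA-E, spermless and wild-type males, at the edge of the 1.5-fold rule. Pepck1, an enzyme of gluconeogenesis, was 1.18 against 0.89, 0.57 and 0.79, the only member of its list past 1.2-fold in every column. Of 20 genes of glycolysis and sugar storage 5 (25.0%, near the 21.9% of all genes compared) were one-sided below virgin, 0 above and 15 on both sides. Ald1, encoding the glycolytic aldolase, was among the 15 on both sides: it was -0.27 with DTA-E mates, 0.16 with spermless mates and -0.66 with wild-type mates. Lsd-1, a perilipin that coats lipid droplets, was higher by 0.82, 0.51 and 0.46 after DTA-E, spermless and wild-type males. The other fly perilipin, Lsd-2, was lower (-0.29, -0.20 and -0.17). Over the lipid list 9 of 22 genes (40.9%, beside 21.9% of all genes compared) were one-sided below virgin and 2 above, with a median of -0.02.

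The spermathecal proteases gave the largest shared difference upwards. Send2, a serine protease of the spermathecal secretory cells, was -1.36 in virgin females, -0.38 with DTA-E mates, -0.34 with spermless mates and -0.13 with wild-type mates. All mated values were above those of the 23 foreign controls, but the virgin value lay within their range (-2.03 to -1.23), above 21 of them, and under the filter on low values. The measured difference of 1.97-fold at the nearest column, 3.87 times the range among mates, therefore starts from a value near background, and the gene entered the comparison only through its mated columns. Send1, expressed in the same cells, was -0.85 against -0.36, -0.31 and -0.31, and it too entered only through its mated columns. Its 3 mated values lay within 0.05, a gap 9.52 times the range. Both genes were above virgin after DTA-E males too, in 1 column. The part of what each mate passes on in these differences was not tested. Of the other 3 measured members of the list, CG32834 (mean -0.18) and CG9897 (-0.07) were one-sided below and CG32277 (-0.02) lay on both sides.

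Ovarian and yolk genes were divided. The chorion gene Cp15 was 3.87 in virgin females and 4.61, 4.48 and 4.61 after DTA-E, spermless and wild-type males, and its neighbour on arm 3L, Cp18, was 2.63 against 3.20, 3.43 and 3.19. Cp16 and Cp19, chorion genes of the same arm, were one-sided above virgin with mean differences of 0.38 and 0.30. Cp7Fc, a chorion gene of the X chromosome, was lower in every mated column (1.37 against 0.67, 1.02 and 1.06). Over the eggshell list 8 of 17 genes (47.1%) were one-sided above and 3 (17.6%) below, with a median of 0.05. Over all genes compared these shares were 25.5% and 21.9%. The yolk receptor gene yl had a mean difference of -0.27 (from -0.19 to -0.37) and Yp1 one of -0.10, which was no longer one-sided after quantile normalization. The translational regulator orb of the germline had 0.21, the largest of its list. In that list 5 of 23 members (21.7%) were one-sided above and 3 (13.0%) below, neither share larger than over all genes.

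DNA replication and cell cycle genes were lower by small amounts. Of 29 measured members 14 were one-sided below virgin (48.3%, beside 21.9% of all genes compared) and 1 above, and the median was -0.05. Among them, RfC4 of the clamp loader had a mean difference of -0.16, the transcription factor gene E2f1 -0.14, the licensing factor gene dup -0.12 and the helicase gene Mcm3 -0.11. For comparison, the SD between probe sets of a gene was 0.068. With 1 column left out, so that only 2 must lie on 1 side, 25 of 29 were below without the DTA-E column, 14 without the spermless column and 17 without the wild-type column, beside 2007, 1825 and 1729 of all 6201 genes.

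fit, which is expressed mainly by females and in the fat body, was 0.54 in virgin females, 1.61 with DTA-E mates, 0.79 with spermless mates and 1.65 with wild-type mates. It was one-sided, but its spermless value lay closer to virgin than to the other mated columns. CG3348 had the same order of columns: 0.13 in virgin females and 1.13, 0.47 and 1.40. Without the spermless column the mean difference was 1.09 for fit and 1.14 for CG3348, beside 0.81 and 0.87 with it. Lsp2, a storage protein gene, was lower after all mates (-0.21, -0.58 and -0.46), and Tsf1, which encodes the iron carrier transferrin, was 2.06 in virgin females and 1.34, 1.70 and 1.75 after the 3 mates. The metallothionein gene MtnB was higher (0.66, 0.41 and 0.36). Its virgin value of -1.20 was under the filter on low values, which it passed through only 1 mated column.

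Other genes were also higher after every mate. Cipc, the homologue of a mammalian CLOCK-interacting repressor, was -1.46 in virgin females and -0.81, -0.49 and -0.53 after DTA-E, spermless and wild-type males. Its virgin value was within the range of the foreign controls, above 20 of 23, and it too passed the filter only through mated columns. l(2)efl, a small heat shock protein gene, was 0.61 against 1.16, 1.56 and 1.15, the mucin gene Muc12Ea 0.96 against 1.40, 1.68 and 1.57, and CG12116 1.27 against 2.02, 2.00 and 1.82. All 3 lay between 1.2-fold and 1.5-fold at their nearest mated column. su(r), which encodes the first enzyme of pyrimidine breakdown, differed by 0.35, 0.33 and 0.38, and CNT2, a concentrative nucleoside transporter gene, by 0.37, 0.36 and 0.30. CG13992 differed by 0.30, 0.28 and 0.29, the smallest range among mates (0.02) of the higher genes past 1.2-fold. Miox, encoding an oxygenase of myo-inositol, was higher by 0.39, 0.59 and 0.38.

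**Figure D3:**
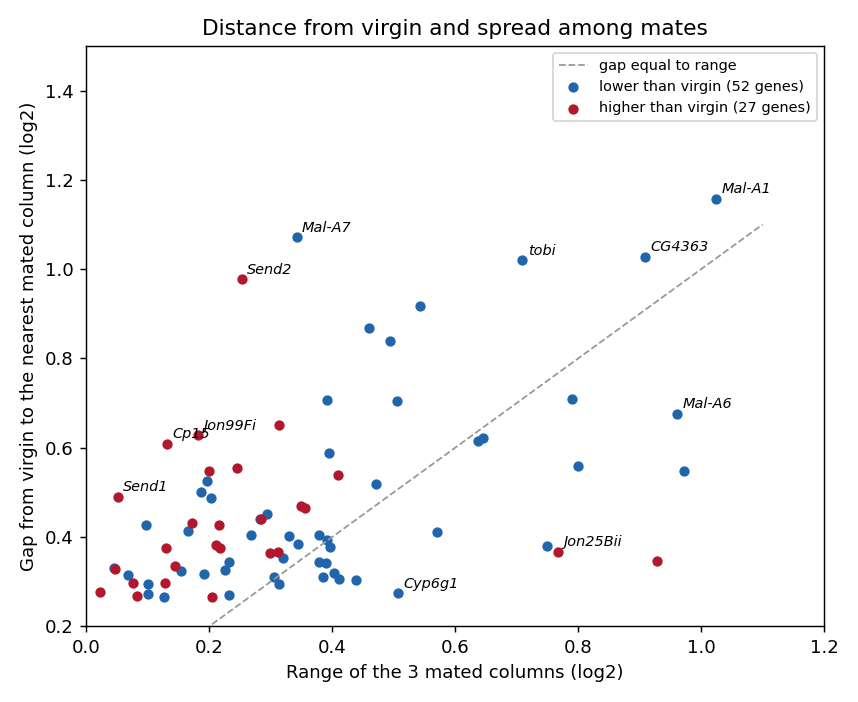
Gap from virgin to the nearest mated column (log2; y axis) against the range of the 3 mated columns (log2; x axis) for the 79 genes past 1.2-fold in every mated column, 1 point per gene. Points above the dashed line have a gap larger than the range: 35 of the 52 lower genes (blue) and 25 of the 27 higher genes (red). Over all one-sided genes these were 307 of 1360 below virgin (22.6%) and 305 of 1579 above (19.3%). The 1.2-fold rule itself selects genes with a large gap.

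Among the genes past 1.2-fold in every column, the lower and higher genes differed in how the mates were ordered. Among the 52 genes past 1.2-fold below virgin, the wild-type column was the farthest from virgin in 46, the DTA-E column in 3 and the spermless column in 3, and the spermless column was the nearest in 37. The median difference in these genes was -0.55 with DTA-E mates, -0.45 with spermless mates and -0.73 with wild-type mates. All 14 genes past 1.5-fold had the wild-type column farthest. Among the 27 higher genes the farthest column was DTA-E in 13, spermless in 9 and wild-type in 5, and the median differences were 0.51, 0.51 and 0.48. Over all one-sided genes this contrast was absent. There the wild-type column was the farthest most often in both directions, in 570 of 1360 genes below virgin and 760 of 1579 above. Whether the orders in the lower and higher genes differ was not tested.

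The threshold separated genes with close values. Just inside the 1.5-fold rule below virgin, the nearest mated column differed by -0.59 for smp-30, -0.62 for CG7916 and -0.62 for CG10910, and just outside it by -0.56 for CG6484, -0.55 for Bace and -0.52 for Cyp6d5. Above virgin, Cp15 (0.61) and Jon99Fi (0.63) were inside and CG12116 (0.55), Cp18 (0.55) and l(2)efl (0.54) outside.

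Cuticle protein genes were one-sided above virgin in 29 of 42 cases (69.0%, beside 25.5% of all genes compared) and below in 0. This was the largest share above virgin of the lists, and all 42 had a mean difference above 0. The differences were small, with a median of 0.09 and 0 members past 1.2-fold in every column. The adult cuticle gene Acp1, which is no accessory gland gene, had 1.31 in the spermless column against 0.26 with DTA-E and 0.07 with wild-type mates. Cpr49Ae likewise had 1.04 against 0.23 and 0.26. Over all genes compared, the share one-sided above virgin, with genes split into 5 equal groups by mean value, was 34.6% in the lowest group and 17.7% in the highest, and 12 of the 42 cuticle genes were in the lowest. On the same centred scale the foreign controls were higher than virgin by 0.01, 0.12 and 0.07 after DTA-E, spermless and wild-type males. With the trend on signal level removed, 28 of 42 were above virgin. Without the filter on low values 57 of 93 cuticle genes were above and 2 below, with a median of 0.04. Over all genes without the filter, 3461 were above and 2015 below. How many of the 42 passed the filter only through mated columns was not counted. The part of signal level, background and the filter in the cuticle count was not tested.

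**Figure D4:**
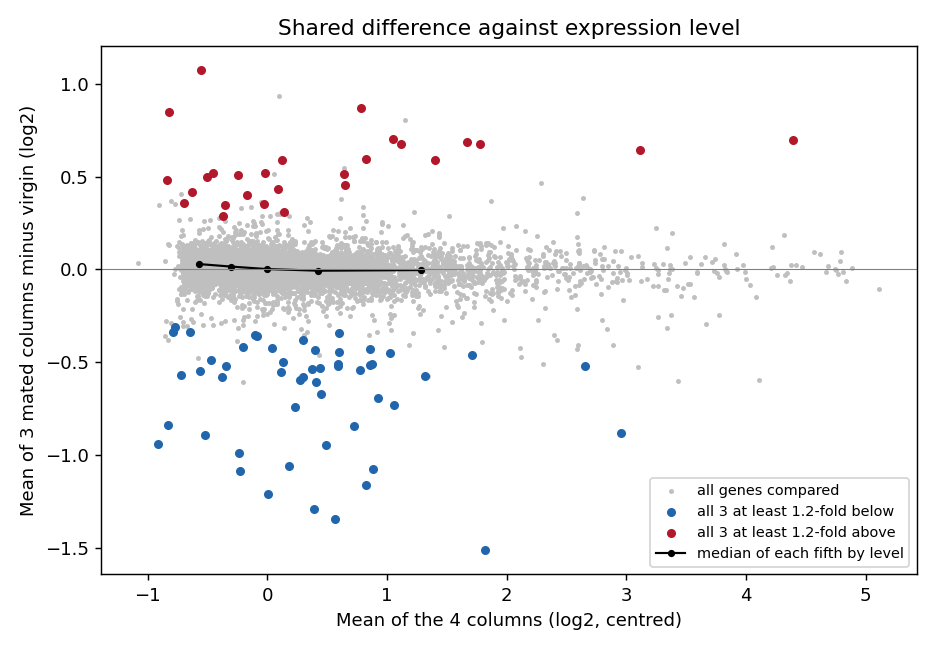
Mean of the 3 mated columns minus virgin (log2; y axis) against the mean of the 4 columns (log2, centred; x axis) for 6201 genes in grey, with the 52 genes past 1.2-fold below virgin in every column in blue and the 27 above in red. The black line joins the medians of 5 equal groups by level, which run from 0.03 in the lowest to -0.003 in the highest.

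Other lists had few members, or none, past 1.2-fold in every column. Their counts stand beside 25.5% of all genes compared one-sided above virgin, 21.9% below and 52.6% on both sides. Respiratory chain genes lay on both sides of virgin in 53 of 60 cases, and their median was -0.03 with DTA-E mates, 0.21 with spermless mates and -0.26 with wild-type mates. Of 24 flight muscle and sarcomere genes 5 were one-sided above virgin and 0 below, and the list median was -0.05 with DTA-E mates, 0.41 with spermless mates and -0.09 with wild-type mates. The muscle protein gene Mp20 had a mean difference of 0.37 with all 3 columns above. Antimicrobial peptide and bomanin genes were one-sided in 5 of 14 cases, with Def (0.14, 0.30 and 0.30) and Listericin (0.14, 0.38 and 0.34) above and no member past 1.2-fold in every column. Immune recognition and signalling genes were one-sided above in 3 and below in 4 of 21 cases. Of 9 juvenile hormone and ecdysone genes 5 were above, among them ImpL2, an insulin-binding protein gene induced by ecdysone (0.12, 0.20 and 0.15), and sad, of ecdysone synthesis (0.10, 0.08 and 0.16). Mitochondrial ribosomal protein genes were above in 30 of 65 cases with a median of 0.03, a count of 8 in the columns as deposited. Proteasome genes were below in 8 of 26 cases (30.8%) and above in 0. Odorant binding protein genes were below in 4 of 11 and above in 0, with Obp99a at -0.06, -0.96 and -0.25.

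**Figure D5:**
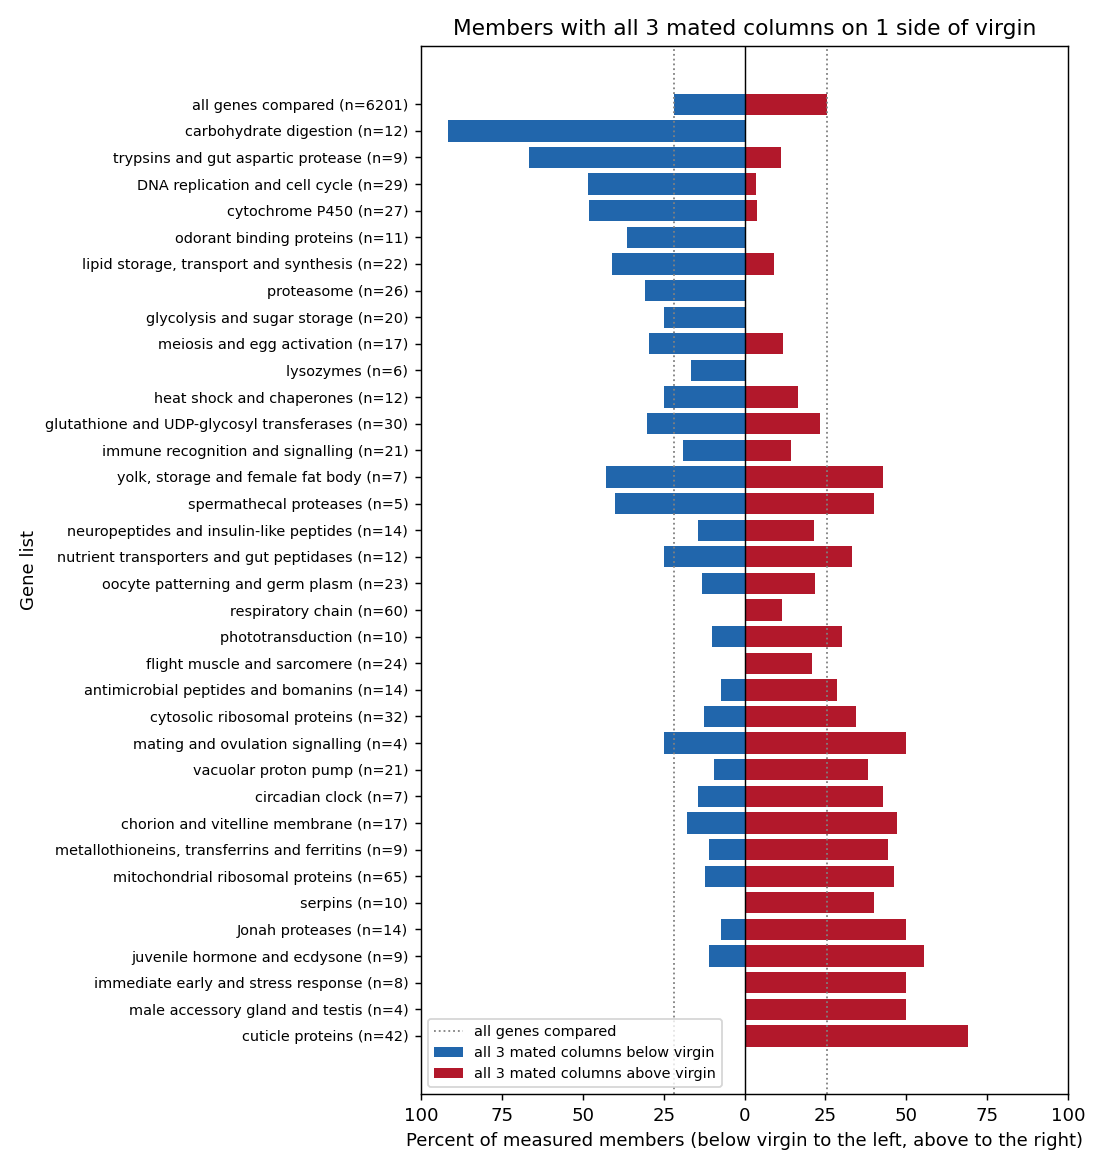
Percent of the measured members of each gene list (y axis, with n) whose 3 mated columns were all below virgin (blue, to the left) or all above it (red, to the right); dotted lines mark 21.9% and 25.5%, the shares of all genes compared. Carbohydrate digestion has the largest share below (91.7%) and cuticle proteins the largest above (69.0%); lists are sorted by the difference of both shares.

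Male transcripts, which could enter mated females with the ejaculate, gave few values. Of 50 listed accessory gland and testis genes 4 passed the filter on low values, all of them of the Mst spermatid family. Mst84Dc was 0.23 in virgin females and 0.24, 0.27 and 0.34 after DTA-E, spermless and wild-type males, and Mst98Ca was 0.34 against 0.35, 0.40 and 0.42. The largest difference from virgin in these 2 genes was 0.10. Neither was one-sided under a filter at the 75th percentile, and Mst84Dc was not in the columns as deposited either. The other 2, Mst84Db (-0.01, 0.13 and 0.10) and Mst84Dd (-0.02, 0.11 and 0.09), lay on both sides of virgin. Among receptors and enzymes of mating and ovulation, 4 of 17 listed genes were measured: the octopamine receptor gene Octbeta3R (mean 0.09) and the metalloproteinase inhibitor gene Timp (0.14) were one-sided above virgin and the transporter gene Esp (-0.13) below.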

How the data were processed

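The values deposited by the authors are logged expression values from Affymetrix Drosophila GeneChips. Neither the log base nor how the 4 chips of a treatment became 1 column is given in the sources used here; the deposited values were read as log2. All 4 column means lie near 0, so columns had been scaled; genes were not centred. Of 14009 probe sets, 44 controls were left out, 12443 had 1 symbol, 326 several and 1196 none; 12393 were updated through RefSeq identifiers and 50 kept older symbols. Probe sets whose highest column reached the median of all values (-0.18) were kept, each column was centred on its median, and genes with several probe sets took their mean, giving 6534 probe sets and 6201 genes. The number of arrays limits the precision. The calculation was tested on simulated data.

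Of 36 gene lists, 35 had at least 4 measured members; no Turandot stress gene was measured. Members and lists were chosen with earlier results of these data known. The text could name the 20 highest and lowest one-sided genes by mean, 15 by nearest column and 10 by gap over range in each direction. It could also name 5 members of each list, genes in opposite directions past 1.5-fold, and 5 genes on each side of that threshold. Mal-A2, Mal-A3, Mal-A5 and Jon25Biii were named, after their values were seen, to complete their clusters. Alternatives were other scalings, filters, thresholds and probe set rules, a lowess trend (fraction 0.3, 3 iterations) and leaving out each mated column. Python 3.11.15, numpy 2.4.6, pandas 2.3.3, statsmodels 0.14.6 and matplotlib 3.10.9 were used.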

Additional observations from a re-analysis of the deposited data

Results flagged for a closer look

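In 5 genes the mated columns moved past 1.5-fold in opposite directions from the same virgin column, which sets them outside the shared response; with 1 column per group these differences were not tested. The flight muscle genes Act88F (1.30 with spermless and -1.65 with wild-type mates) and fln (1.06 and -1.33) and the mitochondrial phosphate carrier gene Mpcp1 (0.66 and -0.83) were higher after spermless and lower after wild-type males. The antimicrobial peptide genes Mtk (0.96 after wild-type males and -1.42 after DTA-E males) and DptB (0.79 and -0.67) were higher after wild-type and lower after DTA-E males.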

How the results depend on the processing

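No paired analysis was possible because each group has 1 column. The 14 genes past 1.5-fold below virgin in every column were all kept after quantile normalization and with the level trend removed. They were also kept in the columns as deposited and with the brightest probe set, but neither alternative could drop them. The columns as deposited place every mated column lower against virgin (by at most 0.05), and each of the 14 had 1 probe set. Without the filter 11 were kept, and under the filter at the 75th percentile all 12 that were still measured. The counts above virgin were less stable, and in the columns as deposited the same shift lowers them. For all 3 columns at least 1.5-fold above, 4 genes became 2 in the columns as deposited, 1 with no filter, 2 with the stricter one and 2 probe sets when probe sets were counted as deposited, an alternative chosen after seeing the data. Genes with all 3 columns above went from 1579 to 1002 in the columns as deposited, 3461 with no filter and 852 with the stricter one, where 704 were below. Genes above were 53.7% of the one-sided genes, but 36.0% in the columns as deposited and 63.2% with no filter. Read as natural logs, 13 genes were past 1.5-fold above and 25 below in every column, and 7 and 17 were one-sided with a mean past 2-fold, beside 1 above and 8 below on the log2 reading. That last pair was 14 and 24 at 1.5-fold. It was 2 above without the DTA-E column, 3 above and 14 below without the spermless column, 5 below without the wild-type column, 2 above with the median of the mated columns and 0 above under the stricter filter. At 1.2-fold and 2-fold in every column there were 27 and 0 above and 52 and 4 below; the 1.2-fold counts became 49 above without the DTA-E column and 96 below without the spermless column. The carbohydrate digestion median of -0.56 was -1.07 under the stricter filter, -0.69 without the spermless and -0.44 without the wild-type column; the trypsin list median of -0.29 was -0.22 with no filter, -0.58 under the stricter filter and -0.18 without the wild-type column. The cause of these moves was not tested. No mean difference of the 60 named genes past 1.2-fold in every column changed sign in 586 values under the alternatives. For many of these values that was fixed by the rule that chose the genes. Leaving out a column or taking the median could not change a sign, since all 3 columns lay on 1 side. The brightest probe set left these genes unchanged, since none had a second one. The offsets between columns (at most 0.05) were smaller than the 1.2-fold gap of 0.26. The P450 median was -0.32 under the stricter filter and -0.01 without one. The medians of 7 lists, all within 0.02 of 0 as reported, changed sign with the scaling. With 1 virgin column and no replicate values, an error in that column cannot be told apart from a response shared by all mates, and probe sets near background carry the least certain differences.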
